A study of Mus musculus with 30 samples.

Results

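The 10 genes Hcar2, Gnat3, Spata13, Sod3, Dkk2, Acpp, Slc4a5, Osbp2, Tom1l1 and Gap43 were more highly expressed in E0771 mammary tumors of never-obese mice than in tumors of obese mice, and their levels were followed here through 3 routes of weight loss. They were taken from the 80 genes, of 19505 measured, that were higher in tumors of never-obese mice with a Benjamini-Hochberg adjusted p under 0.05 (0.41% of genes). Within those 80 genes ordered by the size of the difference, they ranked from 5 (Tom1l1) to 38 (Spata13). They are thus not the 10 largest differences, and how they were picked is not known. The values that chose them are the levels in the never-obese and obese groups, and comparisons of the 10 genes that use either group are therefore given as descriptions with no test. The question was how far each route of weight loss brought tumors from the obese level back to the never-obese level.

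The study grew tumors in female C57BL/6NCrl mice of 5 groups, and 6 tumors per group, 30 in all, were each measured on a Clariom S array. CON-LFD mice were never obese and received the low-fat control diet D12450J throughout. DIO-HFD mice were made obese with the 60% high-fat diet D12492 and stayed on it. DIO-VSG mice were made obese in the same way and then had vertical sleeve gastrectomy, the removal of most of the stomach, together with low-fat diet. DIO-CCR and DIO-ICR mice were made obese and then lost weight by chronic or by intermittent calorie restriction. Every mouse had an operation, either the gastrectomy or sham surgery. E0771 cells, a mouse mammary carcinoma line used as a model of triple-negative breast cancer, were injected into the mammary fat pad number 4 at week 25 after the first randomization. All groups thus carry tumors of 1 cell line, and DIO-VSG differs from the restriction groups by both operation and diet.

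Levels are given on the log2 scale, on which a difference of 1 is a doubling. The 10 genes were each read by 1 probe set, and the median of an array was 6.41 to 6.79. The tissue was checked with marker genes. The keratin Krt8 had a median of 9.71 over all tumors, whereas Krt5, Krt14, Krt18 and Epcam had medians of 3.90 to 4.74. In 3 tumors (DIO-HFD 5, DIO-VSG 1 and DIO-VSG 5) the mean of 11 lymph node markers was more than 1 above the median array, and in 3 others (CON-LFD 5, DIO-VSG 3 and DIO-VSG 4) this was so for 12 skeletal muscle markers. The numbers after the group names are sample numbers in order of deposit and pair nothing. Recovery by group is given with and without the tumors of either kind, and other results are where stated.

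The 10 genes belong to no single pathway. Hcar2 is the Gi-coupled receptor for niacin and the ketone body beta-hydroxybutyrate, known from adipocytes, neutrophils and macrophages, and Gnat3 is gustducin, the G protein alpha subunit of taste receptor cells and tuft cells. Spata13 (Asef2) is an exchange factor that loads Rac1 and Cdc42 with GTP. Sod3 is the secreted superoxide dismutase of the extracellular matrix, and Dkk2 is a secreted Wnt pathway modulator that binds the coreceptors Lrp5 and Lrp6. Acpp, also called Acp3, is prostatic acid phosphatase, which can form adenosine from AMP. Slc4a5 is a sodium bicarbonate cotransporter, Osbp2 an oxysterol-binding protein, Tom1l1 an endosomal sorting adaptor and Src substrate, and Gap43 a membrane protein of nerve growth cones.

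Promoters were searched for shared motifs because the 10 genes were high and low in the same groups, and those with a TATA box are shown. RefSeq promoters of build GRCm38.p6 matched 7 of the 10 genes, with 11 start sites, and the 250 bases before each start were searched on both strands. Hcar2, Sod3 and Gap43 were not matched. The TATA box TATAAA stood in front of Dkk2 and of Slc4a5, and in 12.4% of all 32851 promoters. The promoters of Dkk2 (chr3:132085042-132085291, plus strand) and Slc4a5 (chr6:83237125-83237374, plus strand) are printed 5′ to 3′ with the match in capitals.
Dkk2: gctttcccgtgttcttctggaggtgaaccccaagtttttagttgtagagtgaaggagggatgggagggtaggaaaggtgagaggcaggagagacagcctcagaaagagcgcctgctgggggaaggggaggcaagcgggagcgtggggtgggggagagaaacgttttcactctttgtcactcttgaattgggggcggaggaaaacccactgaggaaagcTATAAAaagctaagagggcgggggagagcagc
Slc4a5: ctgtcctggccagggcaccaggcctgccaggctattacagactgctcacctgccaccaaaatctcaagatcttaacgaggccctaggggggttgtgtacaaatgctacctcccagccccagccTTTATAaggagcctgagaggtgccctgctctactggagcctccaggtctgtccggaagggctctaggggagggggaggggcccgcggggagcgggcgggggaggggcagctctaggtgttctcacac
In Dkk2 the match began 32 bases before the start on the strand of the gene. In Slc4a5 it began 127 bases before the start on the opposite strand, so that it reads TTTATA. The STAT motif TTCNNNGAA was found in 1 of the 11 promoters, 121 bases before a start of Spata13, and in 7.02% of all promoters. The AP-1 motif TGANTCA, the C/EBP motif TTGCNNAA, the NF-kB motif and the TCF/LEF motif CTTTGAA were in 0 of the 11, and in 6.75%, 9.56%, 0.356% and 4.46% of all promoters. No motif of the 6 searched was in front of more than 2 of the 7 genes. A match is a run of letters and not a bound site.

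All 10 genes were highest in CON-LFD and 8 of them were lowest in DIO-HFD, with Osbp2 and Gap43 lowest in DIO-ICR. The difference between CON-LFD and DIO-HFD, which chose the genes, ran from 1.42 for Spata13 (2.67-fold) to 3.02 for Tom1l1 (8.09-fold). At the edge of the choice, Gap43 had the largest adjusted p of the 10 (limma, 0.0359, difference 2.11), Stc1 was the last of the 80 genes (0.0481, difference 1.57) and Nos2 the first outside (0.0522, difference 2.61). For 7 of the 10 genes every CON-LFD tumor lay above every DIO-HFD tumor, with Hcar2, Sod3 and Gap43 as the exceptions. Over all genes this was so for 0.518%, and since these values chose the genes nothing is read from the count. In second place stood DIO-VSG for Hcar2, Spata13, Sod3, Acpp and Osbp2, and DIO-CCR for Gnat3, Dkk2, Slc4a5, Tom1l1 and Gap43.

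**Figure D1:**
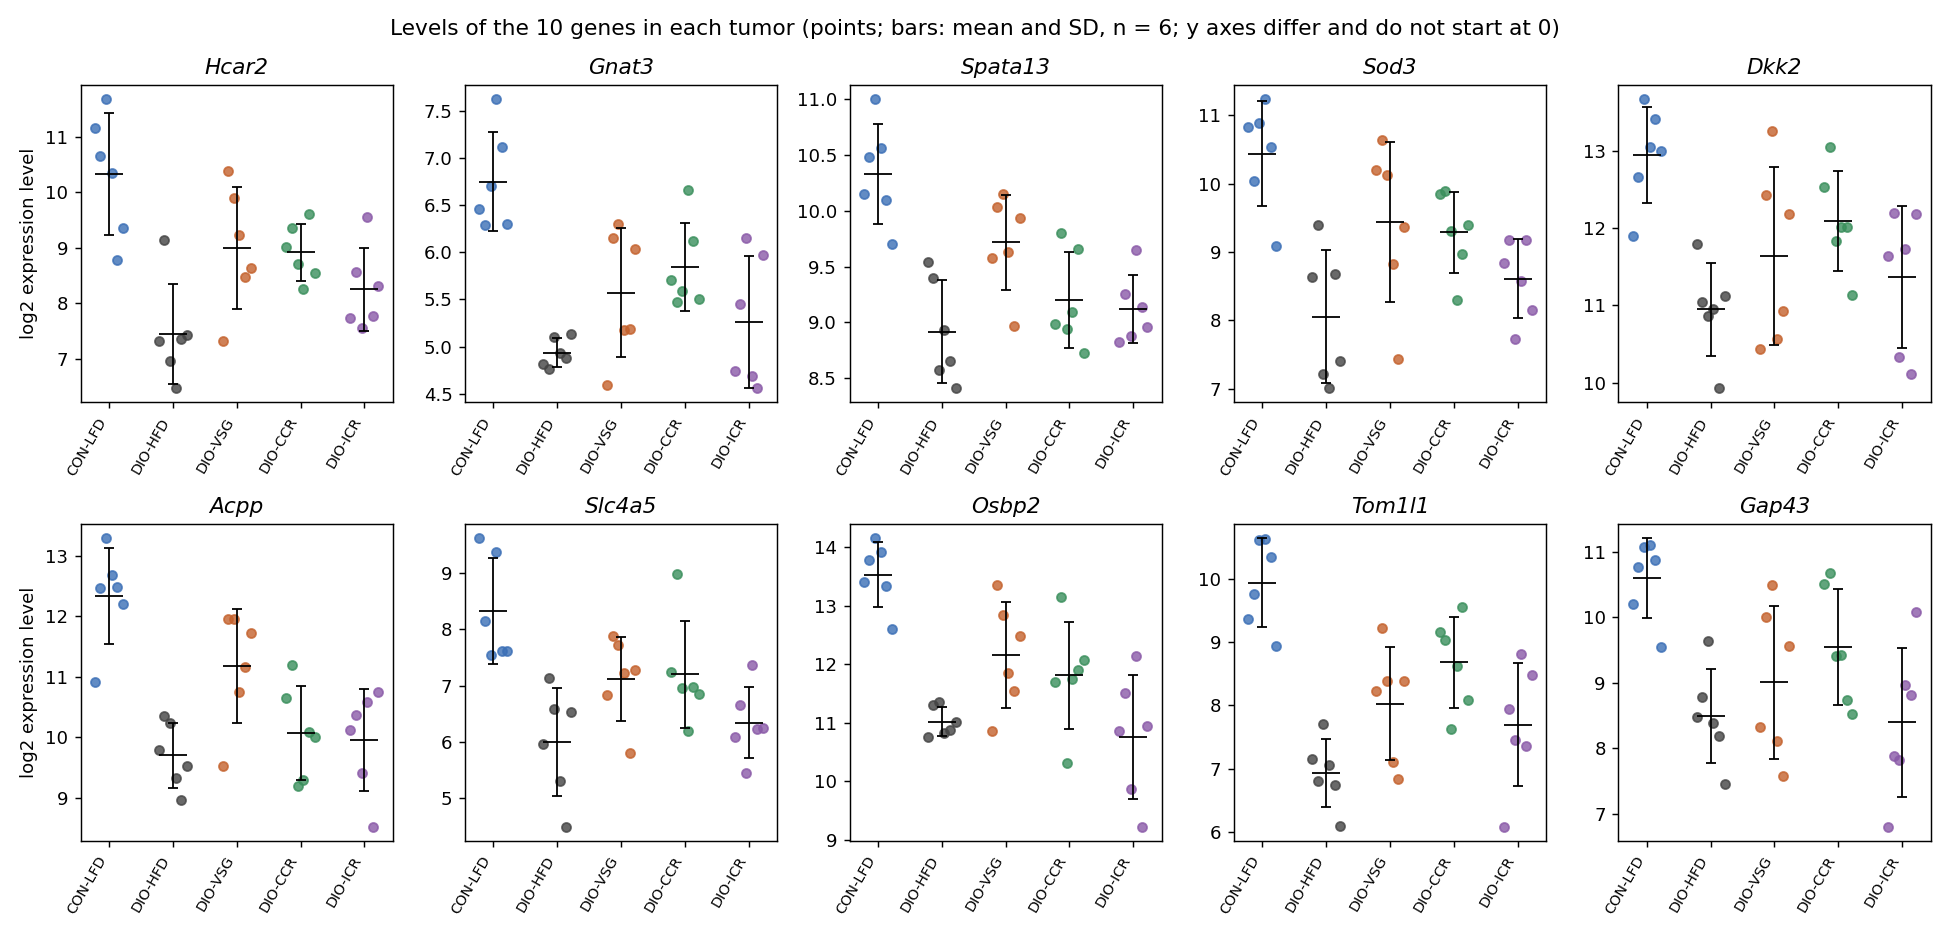
Log2 level (y axis, a scale of its own for each gene) of the 10 genes in the 5 groups (x axis), with 1 point per tumor and bars for the mean and SD of 6 tumors. CON-LFD stands highest in every panel, DIO-VSG and DIO-CCR lie between CON-LFD and DIO-HFD, and DIO-ICR lies close to DIO-HFD for Acpp, Spata13, Osbp2 and Gap43.

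Of the signalling genes, the receptor gene Hcar2 was between 8.78 and 11.68 in CON-LFD (median 10.51) and between 6.47 and 9.15 in DIO-HFD (median 7.34). It ran from 7.31 to 10.39 in DIO-VSG (median 8.94), from 8.26 to 9.62 in DIO-CCR (median 8.86) and from 7.56 to 9.55 in DIO-ICR (median 8.05). DIO-HFD 2, at 9.15, was the only obese tumor at or above the lowest CON-LFD tumor, and without regard to it the DIO-HFD tumors ended at 7.43. DIO-VSG and DIO-CCR had nearly the same mean, 8.99 ± 1.10 and 8.92 ± 0.51 (SD, n = 6), but the DIO-VSG tumors were spread over most of the range between obese and never-obese tumors and the DIO-CCR tumors were not. Hcar2 was the gene with the highest recovery in DIO-ICR, at 8.25 ± 0.74 (SD, n = 6).

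Gnat3 had the tightest obese group, from 4.76 to 5.13 in DIO-HFD (median 4.91) against 6.29 to 7.62 in CON-LFD (median 6.58). The DIO-HFD values all lay below the lowest array median of 6.41, and whether low signal narrowed their range was not tested. Gnat3 was the only 1 of the 10 genes for which every DIO-CCR tumor (5.47 to 6.66, median 5.65) lay above every DIO-HFD tumor, which held for 0.431% of all genes. In DIO-VSG it ran from 4.59 to 6.30 (median 5.61) and in DIO-ICR from 4.56 to 6.15 (median 5.10). Both of these groups reached below the lowest obese tumor and 3 tumors of each were at 5.19 or less, so that each held low and high tumors. The tuft cell genes Trpm5 (2.50 to 3.87 over the 30 tumors) and Pou2f3 (2.13 to 3.67) were near the bottom of the scale throughout. Of other taste and tuft cell genes, Avil, Dclk1 and Plcb2 had CON-LFD means of 5.89, 5.74 and 6.51. Il25 and Chat had CON-LFD means of 2.57 and 2.19.

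Spata13 lay between 9.70 and 11 in CON-LFD (median 10.32) and between 8.41 and 9.54 in DIO-HFD (median 8.79). It stood at 8.97 to 10.15 in DIO-VSG (median 9.79), 8.72 to 9.80 in DIO-CCR (median 9.04) and 8.82 to 9.65 in DIO-ICR (median 9.05). With DIO-VSG, 5 of 6 tumors were above the highest obese tumor, compared with 2 in DIO-CCR and 1 in DIO-ICR. Its levels after either form of restriction stayed close to the obese level.

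Of the genes for secreted proteins, Sod3 ran from 9.09 to 11.23 in CON-LFD (median 10.68) and from 7.01 to 9.39 in DIO-HFD (median 8.02). It ran from 7.44 to 10.63 in DIO-VSG (median 9.75), from 8.29 to 9.89 in DIO-CCR (median 9.36) and from 7.73 to 9.18 in DIO-ICR (median 8.71). No DIO-ICR tumor exceeded the highest obese tumor. Its pattern within DIO-VSG departed from that of the other genes, since DIO-VSG 1 was high for Sod3 at 10.20 and low for most of the others. Dkk2 lay between 11.90 and 13.67 in CON-LFD (median 13.03) and between 9.93 and 11.80 in DIO-HFD (median 11), so that the groups met without overlap. It ran from 10.44 to 13.26 in DIO-VSG (median 11.56), from 11.14 to 13.05 in DIO-CCR (median 12.02) and from 10.11 to 12.20 in DIO-ICR (median 11.69). In DIO-CCR 5 of 6 tumors exceeded the highest obese tumor for Dkk2, against 3 in DIO-VSG and 2 in DIO-ICR.

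The phosphatase gene Acpp stood higher in DIO-VSG than in both restriction groups in its mean. It lay between 10.91 and 13.29 in CON-LFD (median 12.47) and between 8.96 and 10.35 in DIO-HFD (median 9.66). It ran from 9.53 to 11.96 in DIO-VSG (median 11.45), from 9.20 to 11.19 in DIO-CCR (median 10.05) and from 8.52 to 10.74 in DIO-ICR (median 10.24). All DIO-VSG tumors but DIO-VSG 1 were above the highest obese tumor, compared with 2 in DIO-CCR and 3 in DIO-ICR.

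Of the transport and sorting genes, Slc4a5 lay between 7.54 and 9.63 in CON-LFD (median 7.89) and between 4.48 and 7.13 in DIO-HFD (median 6.24). It ran from 5.80 to 7.89 in DIO-VSG, from 6.18 to 8.99 in DIO-CCR and from 5.44 to 7.36 in DIO-ICR, with medians of 7.25, 6.97 and 6.24. DIO-CCR 2, at 8.99, stood apart from the other DIO-CCR tumors, the next of which was at 7.25. Osbp2 had a narrow obese group, from 10.76 to 11.35 (median 10.94), and lay between 12.60 and 14.16 in CON-LFD (median 13.60). It ran from 10.86 to 13.36 in DIO-VSG (median 12.17), from 10.31 to 13.15 in DIO-CCR (median 11.83) and from 9.22 to 12.14 in DIO-ICR (median 10.90). For Osbp2 5 tumors of DIO-VSG and 5 of DIO-CCR exceeded every obese tumor, and 2 of DIO-ICR did. DIO-CCR 3, DIO-ICR 3 and DIO-ICR 5 lay below every obese tumor.

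Tom1l1 ran from 8.94 to 10.64 in CON-LFD (median 10.06) and from 6.09 to 7.71 in DIO-HFD (median 6.94). It ran from 6.84 to 9.23 in DIO-VSG (median 8.31), from 7.63 to 9.55 in DIO-CCR (median 8.83) and from 6.08 to 8.82 in DIO-ICR (median 7.71). In DIO-CCR 3 tumors were within the CON-LFD range, compared with 1 in DIO-VSG and 0 in DIO-ICR. The growth cone gene Gap43 lay between 9.54 and 11.11 in CON-LFD (median 10.83) and between 7.46 and 9.64 in DIO-HFD (median 8.43). It ran from 7.57 to 10.49 in DIO-VSG (median 8.94), from 8.53 to 10.67 in DIO-CCR (median 9.42) and from 6.80 to 10.08 in DIO-ICR (median 8.35). For Gap43 every weight loss group overlapped both reference groups. Of 13 nerve and Schwann cell markers 10 were measured, and their mean was 4.15 to 4.27 in the 5 groups, with Sox10 at no more than 5.62 and Ngfr at no more than 4.18 in any tumor.

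Recovery puts the 10 genes on 1 scale, with 0% at the DIO-HFD mean and 100% at the CON-LFD mean of each gene. Both ends were set by the groups that chose the genes, and genes picked for a large gap make the gap look wider than it would be in new tumors. DIO-CCR brought the genes to a median of 50.6% (14.0% for Acpp to 58.1% for Tom1l1), with 7 genes over 50%. DIO-VSG brought them to a median of 46.9% (24.7% for Gap43 to 57.9% for Sod3), with 4 genes over 50%. DIO-ICR brought them to a median of 16.3% (-10.5% for Osbp2 to 27.8% for Hcar2), with 0 genes over 50% and 2 below 0%. The counts over 50% depended on few tumors. Without the tumors of lymph node signal, all genes but Tom1l1 and Gap43 were over 50% in DIO-VSG. In DIO-CCR only Hcar2, Sod3, Dkk2 and Tom1l1 were then over 50%. No route took any gene to the never-obese mean.

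The mean recovery of single genes differed by route. Acpp and Spata13 recovered by 56.1% and 56.5% in DIO-VSG, but by 14.0% and 19.9% in DIO-CCR and by 9.73% and 14.1% in DIO-ICR. Tom1l1, Dkk2 and Gap43 recovered more in DIO-CCR, by 58.1%, 57.4% and 50.3%, than in DIO-VSG, where they reached 36.5%, 34.3% and 24.7%. Hcar2, Sod3 and Slc4a5 had close means in these groups, at 53.5%, 57.9% and 48.5% in DIO-VSG and at 51.0%, 51.7% and 51.8% in DIO-CCR. Without the tumors of lymph node signal, Dkk2 stood at 53.4% in DIO-VSG and 52.6% in DIO-CCR, and Gap43 at 48.4% and 48.8%. Tom1l1 then stood at 43.9% and 57.6%, Acpp at 70.2% and 8.92%, and Spata13 at 71.1% and 16.8%. Hcar2, Sod3 and Slc4a5 then reached 72.4%, 72.2% and 60.8% in DIO-VSG, and 50.7%, 54.1% and 44.5% in DIO-CCR. The SD of a gene over the 6 tumors of a route was between 17.7 and 57.7 percentage points, so most of these contrasts lie within the spread between tumors. The 70 other genes that were higher in never-obese tumors had median recoveries of 54.5% in DIO-VSG, 41.6% in DIO-CCR and 19.0% in DIO-ICR.

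**Figure D2:**
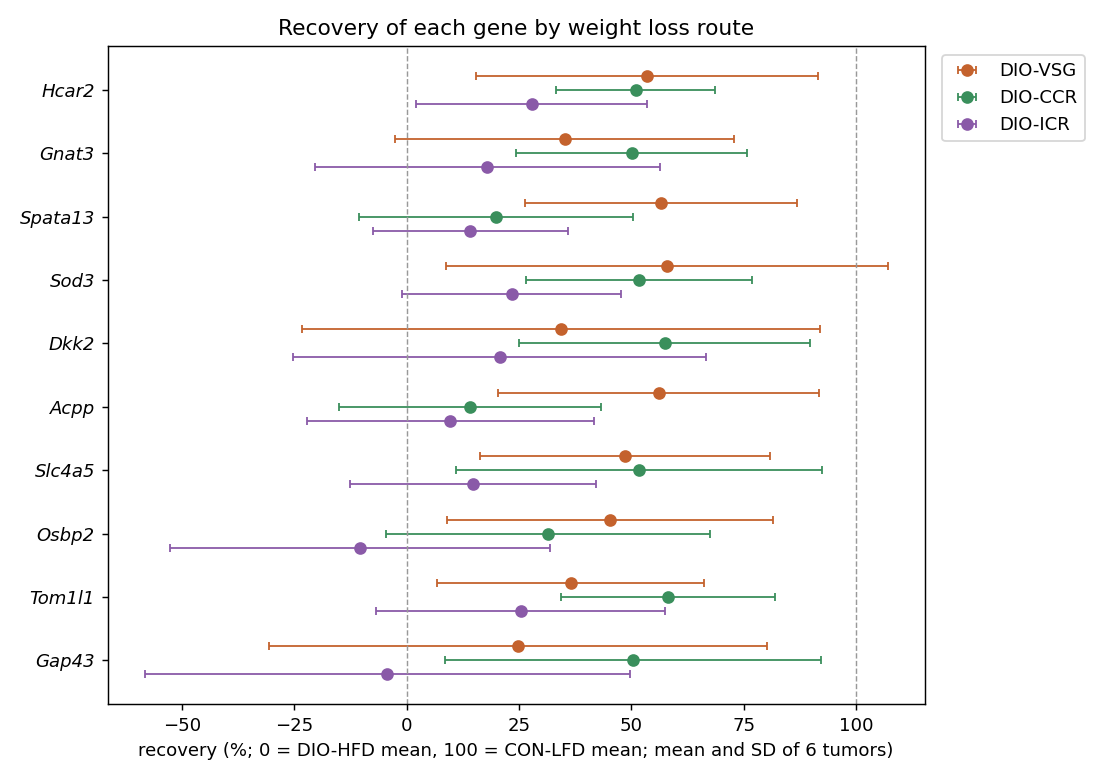
Recovery (x axis, percent; dashed lines at the DIO-HFD mean, 0%, and the CON-LFD mean, 100%) of each gene (y axis) in the 3 weight loss groups, as mean and SD of 6 tumors. Acpp and Spata13 lie near 56% in DIO-VSG and below 20% in the restriction groups, and Osbp2 and Gap43 lie below 0% in DIO-ICR.

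Compared with DIO-HFD, all 10 genes had a higher mean in DIO-VSG and in DIO-CCR, and 8 did in DIO-ICR. The median differences were 1.12, 1.10 and 0.33, and over all genes they were -0.05, -0.02 and -0.03, with 40.2%, 46.4% and 44.2% of genes higher. These 3 comparisons share the obese tumors, whose low values chose the genes. Apart from Gnat3 in DIO-CCR, none of the 10 genes had every tumor of a weight loss group above every DIO-HFD tumor, against 0.385% of all genes in DIO-VSG and 0.543% in DIO-ICR. At the other end, 6 genes (Gnat3, Spata13, Acpp, Slc4a5, Osbp2 and Tom1l1) had every DIO-ICR tumor below every CON-LFD tumor, against 0.759% of all genes. In DIO-VSG and DIO-CCR this was so for 0 of the 10 genes, against 0.231% and 0.436% of all genes. The group in second place overlapped CON-LFD for each gene. The high CON-LFD values also chose the genes, so nothing is read from these counts.

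Taken tumor by tumor, with the median recovery over the 10 genes as the value of a tumor, DIO-VSG was the most divided group. DIO-VSG 2, 3 and 6 stood at 80.1%, 85.2% and 56.6%, DIO-VSG 4 at 32.8%, and DIO-VSG 1 and 5 at -5.55% and 1.34%. The group thus held tumors at the obese level and tumors inside the CON-LFD range, which ran from 66.3% to 123.8%. The DIO-CCR tumors were closer together, between 28.6% and 73.4%, and all of them were above the highest DIO-HFD tumor at 19.5%. The DIO-ICR tumors lay between -12.3% and 41.7%, with 3 of 6 above that obese tumor. The means were 41.7% ± 38.8 in DIO-VSG, 46.0% ± 16.3 in DIO-CCR and 17.0% ± 21.4 in DIO-ICR (SD, n = 6), against 99.9% ± 21.5 in CON-LFD and 1.96% ± 11.3 in DIO-HFD.

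The DIO-VSG mean rested on few tumors. DIO-VSG 1 and 5, the low ones, are also those with lymph node signal, with marker means of 10.26 and 5.61 against 4.04 to 4.37 in the other DIO-VSG tumors. Lymph node markers were not all that set them apart. DIO-VSG 1 also had the highest adipocyte (11.63) and mammary epithelium (7.80) marker means of its group. The same held for its mast cell, fibroblast and endothelium markers. DIO-VSG 5 came next in the group for adipocyte markers (9.23). Leaving out DIO-HFD 5, DIO-VSG 1 and DIO-VSG 5, which carry this lymph node signal, gave means of 63.6% in DIO-VSG, 43.3% in DIO-CCR and 12.8% in DIO-ICR. DIO-VSG 3 and 4 held muscle genes, with marker means of 6.29 and 10.29, and without the 3 tumors that held them the means were 32.6%, 44.8% and 16.7%. DIO-VSG thus stood above DIO-CCR in the first case and below it in the second. The part of any of these tissues in the recovery was not tested. In bulk tumors fewer cells of a type and less RNA per cell cannot be told apart.

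**Figure D3:**
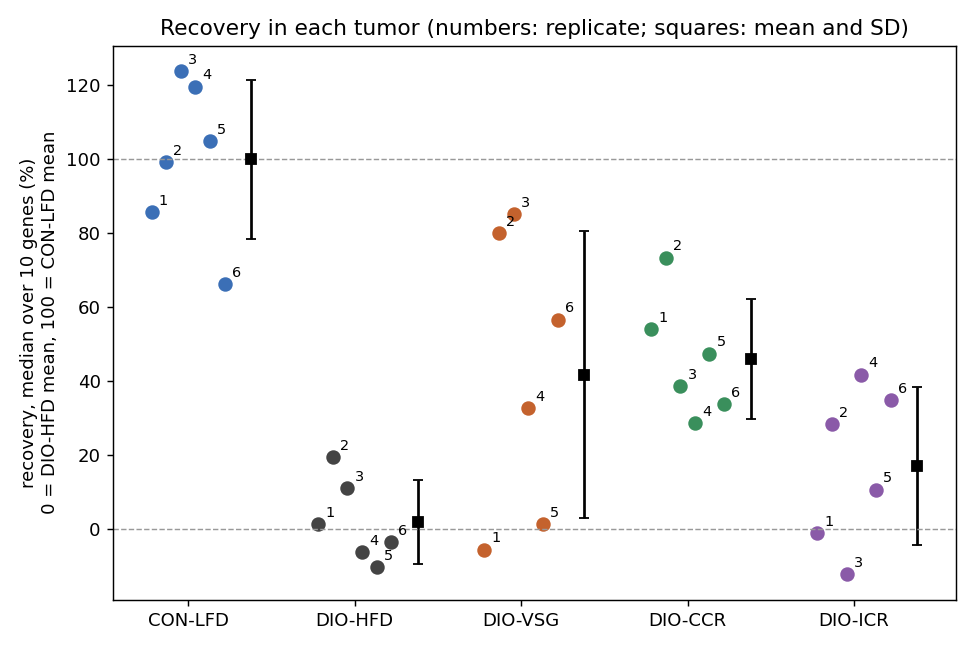
Recovery of each tumor (y axis, percent, median over the 10 genes) by group (x axis), with sample numbers beside the points and squares with bars for the mean and SD of 6 tumors. The DIO-VSG tumors reach from -5.55% to 85.2%, the DIO-CCR tumors lie between 28.6% and 73.4%, and the DIO-ICR tumors between -12.3% and 41.7%.

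Differences among the 3 weight loss groups do not use the tumors that chose the genes and were tested with limma over all 19505 genes. None of the 10 genes passed in any of the 3 comparisons, in which 1, 4 and 0 genes passed overall (0.00513% for DIO-CCR vs DIO-VSG, 0.0205% for DIO-ICR vs DIO-VSG and 0% for DIO-CCR vs DIO-ICR). For no gene did 2 of these groups lie fully apart, against 0.559%, 0.338% and 0.185% of all genes. The smallest adjusted p of the 10 genes was 0.556, 0.571 and 0.999 in turn, and 0.227 was the smallest under any alternative setting. The standard error of a difference had a median of 0.44, so that differences of 1 and more remained inside many of the intervals.

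The means of DIO-ICR and DIO-VSG differed in 1 direction. All 10 genes had lower means in DIO-ICR, with a median of -0.68 compared with 0.02 over all genes, and 3 had an unadjusted p under 0.05, against 7.09% of all genes. These were Osbp2, with a difference of -1.40 ± 0.51 (SE; 95% interval -2.47 to -0.34), Acpp, with -1.22 ± 0.45 (-2.17 to -0.28), and Spata13, with -0.60 ± 0.22 (-1.05 to -0.15). Their limma adjusted p-values were 0.574, 0.580 and 0.571. The intervals of the other 7 genes included 0, and the group median of Dkk2 was slightly higher in DIO-ICR. Without the tumors of lymph node signal all 10 differences were further below 0, and still none passed. Osbp2 then stood at -1.88, Hcar2 at -1.29, Gap43 at -1.15 and Dkk2 at -0.75.

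The means of DIO-CCR and DIO-ICR, the chronic and intermittent forms of restriction, likewise differed in 1 direction. All 10 genes had higher means in DIO-CCR, with a median of 0.70 against 0.003 over all genes, and 1 had an unadjusted p under 0.05, against 4.14% of all genes. This was Tom1l1, higher by 0.99 ± 0.46 (SE; 95% interval 0.03 to 1.95; limma adjusted p 0.999). The largest difference was that of Gap43, at 1.15 ± 0.56 (-0.03 to 2.33), and the smallest were those of Spata13 at 0.08 ± 0.22 (-0.37 to 0.54) and Acpp at 0.11 ± 0.45 (-0.83 to 1.06). By group medians, Acpp and Spata13 were slightly lower in DIO-CCR. The 10 genes vary together from tumor to tumor, so a common direction is not 10 separate observations.

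DIO-CCR and DIO-VSG differed in both directions, with 5 genes higher and 5 lower in DIO-CCR and a median of 0.002 against 0.02 over all genes. Acpp was lower in DIO-CCR, with a difference of -1.11 ± 0.45 (SE; 95% interval -2.05 to -0.16), and so was Spata13, with -0.52 ± 0.22 (-0.97 to -0.06). They were the 2 genes with an unadjusted p under 0.05 (0.0240 and 0.0273), against 7.90% of all genes, and had limma adjusted p-values of 0.556 and 0.567. Tom1l1 was higher in DIO-CCR by 0.65 ± 0.46 (-0.31 to 1.61) and Gap43 by 0.54 ± 0.56 (-0.64 to 1.72), with intervals that reach past 0 on both sides. When the tumors with lymph node signal were left out, Dkk2, Gnat3 and Slc4a5 turned from higher to lower in DIO-CCR, at -0.01, -0.07 and -0.33, and Acpp stood at -1.53. Gap43 then stood at 0.008 and Tom1l1 at 0.41.

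**Figure D4:**
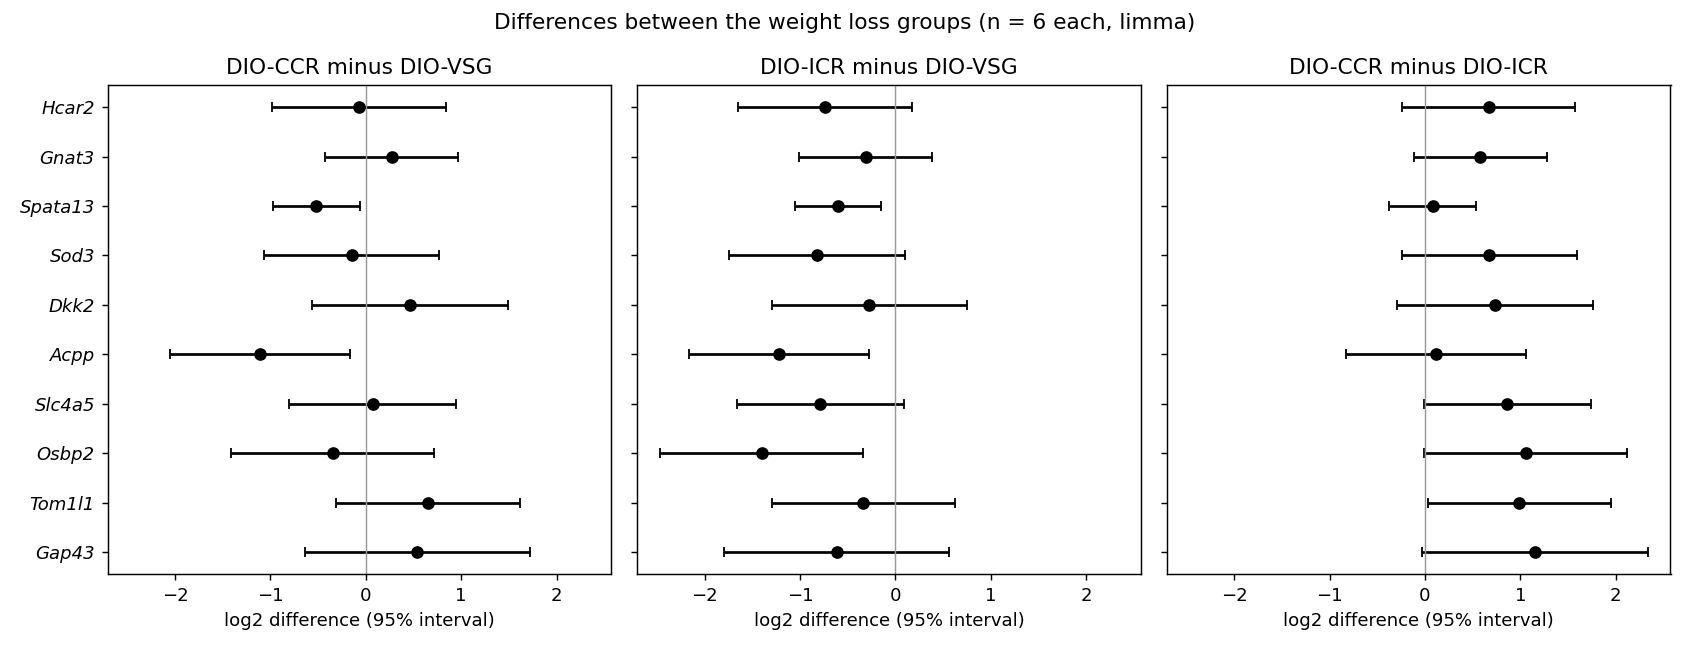
Difference in log2 level (x axis) of each gene (y axis) between DIO-CCR and DIO-VSG, DIO-ICR and DIO-VSG, and DIO-CCR and DIO-ICR, as points with 95% intervals from limma (n = 6 tumors per group). All 10 points lie left of 0 for DIO-ICR minus DIO-VSG and right of 0 for DIO-CCR minus DIO-ICR, and none of the 30 differences passed after adjustment.

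The genes went up and down together within the weight loss groups. Over the 18 tumors, with each group mean removed, the median correlation of the 45 pairs was 0.53 (from -0.17 to 0.87), 43 pairs were above 0 and 25 above 0.5. The median over pairs of all genes was 0.006. The other 70 genes higher in never-obese tumors had a median of 0.29 among themselves and of 0.38 with the 10 genes, so that part of this holds for genes chosen on the same contrast at large. These values are descriptions over tumors that also differ in tissue content, and carry no p. The median was 0.52 over the 16 tumors without lymph node signal.

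Acpp and Osbp2 formed the closest pair (0.87), and both were close to Dkk2 (0.83 and 0.75). Spata13 and Slc4a5 formed a second pair (0.81). Hcar2 had the highest median correlation with the others (0.64), and Gnat3 (0.27) and Sod3 (0.38) had the lowest. Gnat3 had the only values below 0, with Sod3 (-0.17) and with Slc4a5 (-0.12). In the tumors this is seen in DIO-VSG 1, which had the lowest Gnat3 of its group at 4.59 and Sod3 at 10.20.

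**Figure D5:**
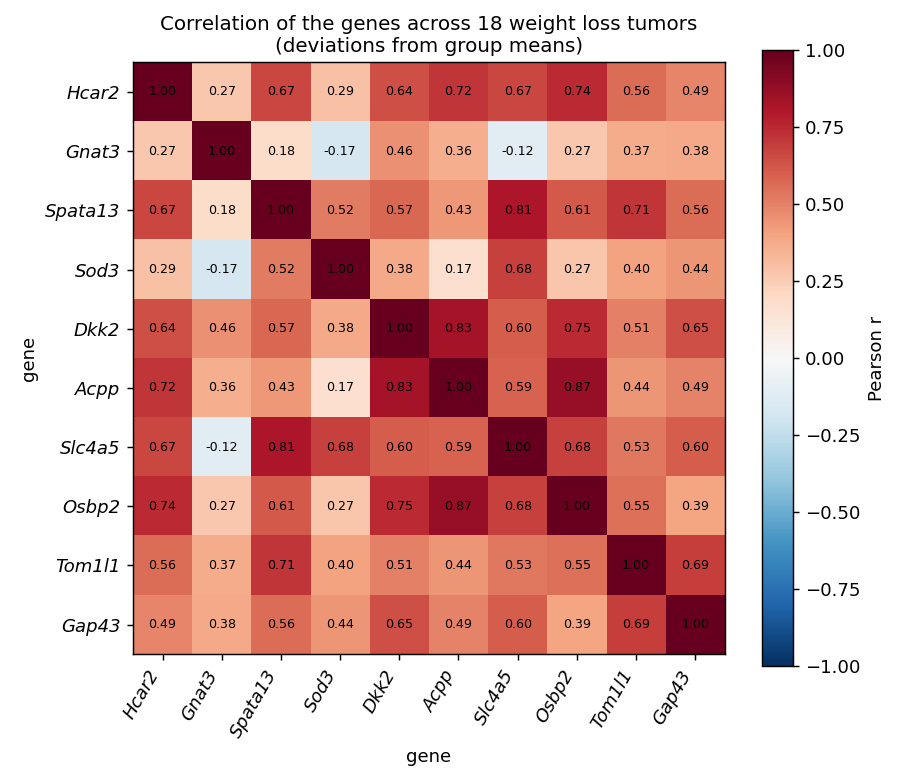
Pearson correlation (color scale, value in each cell) between the 10 genes over 18 weight loss tumors, after the group means were removed. Acpp with Osbp2 (0.87) and with Dkk2 (0.83) are the highest values, and the row of Gnat3 is the palest.

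Of all other genes, those most alike to each gene over the same 18 tumors are given by Pearson correlation of the levels, with the group means left in, so that these values do not stand on the scale of the pairs above. Il33, the gene of an alarmin cytokine, was among the 3 most alike genes of Slc4a5 (0.84), Spata13 (0.77) and Gap43 (0.76). Hcar2 was most like Abr (0.89), Abcc4 (0.87) and the neutrophil chemokine gene Cxcl1 (0.86). Dkk2 was most like Il18rap (0.90), a subunit of the interleukin-18 receptor, Mmp10 (0.87) and Prdm2 (0.84), and Osbp2 was most like Hdc (0.87), the enzyme that makes histamine, Aebp1 (0.85) and Serpinb9b (0.84). Acpp was most like Ptprn (0.85), Riox2 (0.85) and the ERK phosphatase gene Dusp6 (0.83). The closest genes were Kifbp for Gnat3 (0.82), Bco2 for Spata13 (0.80), Bend4 for Sod3 (0.82), Dock9 for Slc4a5 (0.85), Dock4 for Tom1l1 (0.80) and Adgrg6 for Gap43 (0.78).

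Neutrophil markers moved with the groups in part. The mean level of the 15 of 16 listed markers that were measured was 7.79 ± 0.95 in CON-LFD, 6.39 ± 0.54 in DIO-HFD, 7.94 ± 0.36 in DIO-VSG, 6.89 ± 0.45 in DIO-CCR and 6.45 ± 0.44 in DIO-ICR (SD, n = 6). Their summed level ran from 100.6 to 138.7, 87.8 to 110.4, 111.4 to 126.9, 94.0 to 112.0 and 87.3 to 105.9 in that order. Compared with DIO-HFD, 5 markers were higher in CON-LFD and 2 in DIO-VSG by limma, and 0 in DIO-CCR and DIO-ICR. Of all genes 0.995%, 0.154%, 0.354% and 0.461% passed in these comparisons in either direction. For these markers the means of DIO-VSG and CON-LFD lay within their SDs of each other, followed by DIO-CCR, DIO-ICR and DIO-HFD. Hcar2, Spata13, Sod3 and Acpp ran from CON-LFD through DIO-VSG, DIO-CCR and DIO-ICR to DIO-HFD, and the other genes had other orders. The part of neutrophils in these orders was not tested. Csf3r, a defining marker, was between 7.63 and 10.29 in the 30 tumors.

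Within the weight loss groups none of the 10 genes had a correlation with the neutrophil mean that passed adjustment over the 10 tests (two-sided permutation within groups, 18 tumors). The Pearson r ran from -0.16 for Gnat3 to 0.50 for Tom1l1, with a median of 0.35 and 9 values above 0. For Tom1l1 the permutation p was 0.0458 (adjusted 0.302) and Spearman's rho was 0.58 (permutation p 0.0210, adjusted 0.210). Without DIO-ICR 4 and 5, the tumors farthest from the median of the marker mean within their groups, r was 0.43. The result turned on DIO-VSG 1, which had the highest marker mean of its group (8.46) and the lowest recovery. Without it Hcar2 had r = 0.76 (permutation adjusted p 0.0068) and Acpp r = 0.71 (permutation adjusted p 0.0263) over 17 tumors. With both DIO-VSG tumors of lymph node signal left out, the values were 0.82 (permutation adjusted p 0.0039) and 0.72 (permutation adjusted p 0.0302) over 16 tumors. Both settings leave out DIO-VSG 1, so they are not separate observations. Leaving out a tumor with a high marker mean and low levels of these genes tends to raise r. The p-values are adjusted over the 10 genes and not over the settings tried.

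Adipocyte and mast cell markers had other orders. The mean of 11 adipocyte markers was lowest in CON-LFD (7.11 ± 0.95) and highest in DIO-CCR (9.75 ± 1.20) and DIO-ICR (9.71 ± 0.61), with 7.81 ± 0.98 in DIO-HFD and 8.20 ± 1.92 in DIO-VSG (SD, n = 6). The summed level of these markers ran from 68.2 to 94.6 in CON-LFD and from 98.0 to 118.2 in DIO-ICR. The adipocyte marker means of DIO-CCR and DIO-ICR were close, and none of the 10 genes passed between these groups. The mean of 8 mast cell markers was 5.84 in DIO-HFD and between 6.06 and 6.47 in the other groups. The part of any of these cells in the levels of the 10 genes was not tested.

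The genes that work with the 10 genes showed few differences. Of 184 partner genes in 10 lists, 1 list for each gene, 166 were measured. In CON-LFD compared with DIO-HFD 1 rose and 1 fell, or 1.20% of the measured partners, against 0.995% of all genes. In DIO-VSG 0 passed by limma (0.154% of all genes), and the smallest adjusted p was 0.116. In DIO-CCR 1 fell (0.354% of all genes passed) and in DIO-ICR 1 rose (0.461%). No list had more than 1 gene past the threshold in any comparison, and the medians of the partner genes lay between -0.04 and 0.005.

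Apcdd1, a Wnt antagonist of the Dkk2 list, was higher in CON-LFD (11.79 to 12.71) than in DIO-HFD (11.01 to 11.60), by 1.00 ± 0.20 (SE; limma adjusted p 0.00957), and kept its call in each setting tried. Its mean was 11.54 in DIO-VSG, 11.78 in DIO-CCR and 11.53 in DIO-ICR. The other 22 measured genes of that list, which holds Wnt antagonists, Wnt receptors and Wnt target genes, did not pass in any of the 4 comparisons. Slc29a1, a transporter that takes up adenosine, of the Acpp list, was lower in CON-LFD (10.71 to 11.11) than in DIO-HFD (11.33 to 11.70), with a difference of -0.57 ± 0.13 (SE; limma adjusted p 0.0223). This call was lost without CON-LFD 3, CON-LFD 4, DIO-HFD 2 or DIO-HFD 5, with adjusted p-values of up to 0.0732, and with the tumors of lymph node signal left out (limma adjusted p 0.0540).

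Nt5e, the ectonucleotidase CD73, which forms adenosine from AMP as Acpp can, was lower in DIO-CCR (9.62 to 11.29) than in DIO-HFD (10.89 to 13.12), with a difference of -2.03 ± 0.46 (SE; limma adjusted p 0.0465). This call was lost in 18 of 30 fits that left out 1 tumor, with adjusted p-values of up to 0.131. It was also lost in 5 of 9 other settings (quantile normalization, trend and robust empirical Bayes, only the 2 groups compared, and the tumors of lymph node or of muscle signal left out), with adjusted p-values of up to 0.0857. The mean of Nt5e was also below that of DIO-HFD (12.3) in CON-LFD (11.05), DIO-VSG (11.90) and DIO-ICR (10.84), where it did not pass. Marcks, an actin-binding membrane protein of growth cones from the Gap43 list, was higher in DIO-ICR (12.72 to 13.72) than in DIO-HFD (11.92 to 12.53), by 0.95 ± 0.20 (SE; limma adjusted p 0.0276). It lost the call without DIO-HFD 3, 4, 5 or 6 or DIO-ICR 2, 5 or 6, with adjusted p-values of up to 0.0826. The mean of Marcks was 13.25 in DIO-ICR, 13.07 in DIO-VSG and 13.03 in DIO-CCR, against 12.30 in DIO-HFD and 12.44 in CON-LFD.

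In the other 7 lists no gene passed, and the genes with the smallest p are given as values, each as a difference from DIO-HFD. In the Hcar2 list the lactate receptor gene Hcar1 differed by 1.08 in DIO-CCR (limma adjusted p 0.201) and the ketone-using enzyme gene Oxct1 by -0.29 in DIO-ICR (0.260). In the Spata13 list, which holds Rac and Cdc42 activators, Vav2 differed by 0.82 in DIO-ICR (0.0541) and Vav1 by 0.82 in DIO-VSG (0.173). In the Sod3 list the copper transporter gene Atp7a differed by 0.44 in CON-LFD (0.104). In the Osbp2 list the oxysterol receptor gene Nr1h3 differed by 0.82 in DIO-ICR (0.212). The smallest adjusted p-values in the Gnat3, Slc4a5 and Tom1l1 lists were those of the sweet and umami receptor gene Tas1r3 (-0.70 in DIO-CCR, 0.256), the anion exchanger gene Slc4a1 (-0.63 in DIO-ICR, 0.314) and the adaptor gene Tom1l2 (-0.50 in DIO-VSG, 0.165).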

How the data were processed

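The authors homogenized tumors in TRIzol with beads, purified RNA on columns, prepared it with the WT PLUS kit and hybridized it to Clariom S arrays. The deposited values are log2 levels for which the authors used SST-RMA, a robust multi-array average, from Transcriptome Analysis Console 4.0.2, and no further normalization was applied. The table held 22206 probe sets, of which 19572 had 1 gene symbol, 0 several and 2634 none, and the brightest probe set stood for each of 55 symbols that had several, giving 19505 genes. For the array design no genome build is stated in the sources used here. Arrays have no read depth, so the number of arrays limits the precision.

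The 10 genes, the partner lists and the marker lists were chosen with earlier results of these data known. How the 10 were picked from the 80 is not known. The text names all 10 genes, the 3 genes most alike to a gene (in part only the closest), and of each partner list the genes that passed or had the smallest p. Groups came from the labels. The labels give no batch. Each tumor came from a mouse of its own.

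Tests were made in limma 3.58.1 (R 4.3.3) with a mean per group and Benjamini-Hochberg adjustment over all genes, and a gene passed at an adjusted p under 0.05. The 10 genes were tested on the 18 arrays of the weight loss groups (15 residual degrees of freedom), and partner and marker genes on all 30 (25 residual degrees of freedom). Correlations with the marker mean used 1e+05 permutations within groups (numpy 2.4.6, with ranks from scipy 1.17.1), with group means removed. The scripts were tested on simulated data. Alternatives were median centring, quantile normalization, all probe sets, omission of the 30% dimmest genes, array weights, empirical Bayes with trend and robust weights, other samples in the fit, other reference levels, and leaving out tumors.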

Additional observations from a re-analysis of the deposited data

Results flagged for a closer look

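Of 55 sets of 6 values tested, 1 held a value far from the others, where chance flags about 1 in 20. Hcar2 in DIO-HFD 2 was at 9.15, and the next DIO-HFD tumor was at 7.43. The gap was 0.642 of the range of the group, above the critical value of 0.625 for 6 samples. The same tumor had the highest neutrophil marker mean of the obese group (7.36, against 5.85 to 6.58 in the others) and the highest recovery over the 10 genes (19.5%).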

How the results depend on the processing

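None of the 10 genes passed between weight loss groups in any of the alternatives. The directions were less firm. When the tumors with lymph node signal were left out, the DIO-CCR minus DIO-VSG difference turned to -0.014 for Dkk2, -0.071 for Gnat3 and -0.33 for Slc4a5. It turned to 0.22 for Hcar2 without the tumors that held muscle genes and to 0.0074 for Sod3 with array weights. With 1 tumor left out, that difference ran from -0.41 to 0.21 for Hcar2, from -0.28 to 0.28 for Slc4a5 and from -0.55 to 0.093 for Sod3, the DIO-CCR minus DIO-ICR difference ran from -0.17 to 0.29 for Acpp and from -0.039 to 0.19 for Spata13, and the DIO-ICR minus DIO-VSG difference ran from -0.51 to 0.053 for Dkk2. The cause was not tested. Recovery with 1 tumor left out ran from 33.1% to 51.2% in DIO-VSG, 40.5% to 49.5% in DIO-CCR and 12.1% to 22.9% in DIO-ICR, and DIO-ICR stayed the lowest in each other setting tried.

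The number of partner genes that passed in CON-LFD vs DIO-HFD was 1 without the tumors of lymph node signal, and 1 to 3 with 1 tumor left out. In DIO-CCR vs DIO-HFD it was 0 with quantile normalization, with trend and robust empirical Bayes, with only the 2 groups compared and without the tumors of lymph node or of muscle signal, 3 with array weights, and 0 to 2 with 1 tumor left out. In DIO-ICR vs DIO-HFD it was 3 without the 30% dimmest genes, 2 with trend and robust empirical Bayes, 4 with array weights, 3 with only the 2 groups compared, 3 without the tumors of lymph node signal, and 0 to 5 with 1 tumor left out. The correlations with neutrophil genes that passed numbered 2 without the tumors of lymph node signal, and 0 to 2 with 1 tumor left out.

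No paired analysis was possible because the labels give each tumor a mouse of its own and no number shared between groups. Precision rests on 6 tumors per group, and no detection call came with the values.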
